A study of Mus musculus with 6 samples.

Results

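The 9 genes Hnf4a, Foxa1, Foxa2, Foxa3, Cebpa, Onecut1, Onecut2, Prox1 and Hhex encode transcription factors that set up and hold the hepatocyte fate. They were picked by name as hepatocyte lineage factors from the 27179 genes counted in each library, by a rule that holds no measured value but was written with earlier results of these data known. All 9 were found, and all 9 passed the filter on low counts that left 14380 genes. Their transcripts were measured by RNA-seq in liver libraries of C57BL/6 mice, 3 wild type and 3 labelled Mettl3-deficient. The labels do not say that the libraries come from separate animals. Mettl3 is the methyltransferase subunit that places N6-methyladenosine (m6A) on RNA. The labels give the same strain for both groups and name no treatment, and the sources used here do not give the route of the deficiency, the cells it affected, or the age and sex of the mice.

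Hepatocyte identity is held by a network in which these factors bind the enhancers and promoters of liver genes and of one another. HNF4A is an orphan nuclear receptor found at a large share of active liver promoters, C/EBPalpha is a leucine zipper factor of metabolic genes, and the FOXA proteins are pioneer factors that open packed chromatin. The ONECUT proteins pair a cut domain with a homeodomain and act in both hepatocyte and bile duct development, while the homeobox proteins PROX1 and HHEX are needed for the liver bud to grow out.

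Libraries held between 31960205 and 36025772 counts. Levels are given as CPM, counts scaled to a common library size, here after TMM, a method that sets the bulk of genes equal between libraries. With scaling by library size alone, the median over the 14380 genes moved from a log2 fold change of 0.01 to 0.49, so every change below is relative to the bulk of genes. Mettl3 itself stood at 13.4, 14.3 and 12.1 CPM in the wild-type libraries and at 5.96, 6.60 and 4.94 CPM in the Mettl3-deficient ones, with no overlap. Wild type replicate 1 stood apart: across genes it correlated with wild-type replicates 2 and 3 at 0.943 and 0.939, while those 2 correlated at 0.983. It was also the only wild-type library with Y-linked transcripts (6508 counts), which Mettl3-deficient replicates 1 and 2 carried as well (4747 and 5031 counts) and the other 3 libraries did not (0 counts). The lowest wild-type level was in replicate 1 for 7 of the 9 factors and for 40.9% of all tested genes. Among Mettl3-deficient libraries, replicate 2 was lowest for 7 of the 9 factors and for 37.1% of genes. The tissue label fitted its markers, since all 12 listed hepatocyte markers were tested, and they summed to between 163999 and 218083 CPM in wild type and between 82864 and 113964 CPM in Mettl3-deficient livers. Albumin carried most of that gap: without Alb, a sum added after seeing the data, the ranges were 55359 to 79038 CPM and 50802 to 60635 CPM, which overlapped. Sums of TMM-normalised CPM do not share a total. Over all genes they came to between 1135146 and 1212794 in wild type and between 797633 and 893300 in Mettl3-deficient livers. The marker sums are therefore relative to the bulk of genes and are not shares of a library. Of the 12 markers, 4 were called lower and 8 were not called. Where a marker was lower, fewer hepatocytes and less of its RNA per hepatocyte cannot be told apart in bulk liver.

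Of the 9 factors, 4 fell and 0 rose in Mettl3-deficient livers by edgeR at an adjusted p under 0.05, the threshold for a call here. Cebpa fell 2.65-fold, Onecut2 2.36-fold, Hnf4a 2.24-fold and Foxa1 1.66-fold. Over all tested genes, 10.5% were called lower and 13.3% higher. For these same 4 factors, every Mettl3-deficient library lay below every wild-type library, a pattern seen for 21.9% of genes. All 9 estimates were below 0, as were 7095 of the 14380 over all tested genes. Those of Onecut1 (-0.01) and Hhex (-0.09) were near 0. With library size alone, the estimates of Onecut1, Hhex, Foxa2 and Foxa3 turned positive. The median log2 fold change of the 9 was -0.73, against 0.01 for all tested genes. The number of factors that fell dropped to 1 when wild type replicate 2 was left out, and to 2 when wild type replicate 3 or either of the first 2 Mettl3-deficient replicates was left out. Library size alone also gave 2.

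**Figure D1:**
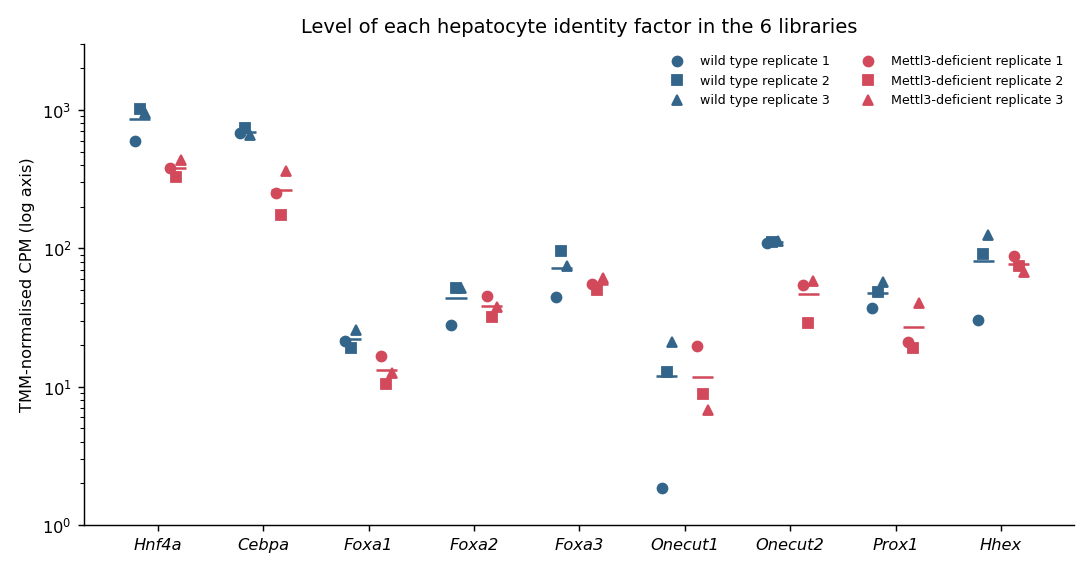
TMM-normalised CPM (log axis) of each factor in each library, wild type in blue and Mettl3-deficient in red, with a marker shape for each replicate number and a bar at each group mean. Hnf4a, Cebpa, Foxa1 and Onecut2 show no overlap between the groups, while Onecut1 and Hhex have 1 wild-type library far below the rest (1.85 and 30.4 CPM).

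Hnf4a (Entrez 15378, chromosome 2, 163506811 to 163572907, GRCm38), the nuclear receptor at the centre of the network, had 593, 1023 and 954 CPM in wild-type libraries and 383, 326 and 437 CPM in Mettl3-deficient ones. The lowest wild-type library, replicate 1, was still above the highest Mettl3-deficient library. The mean went from 857 ± 231 to 382 ± 55.8 CPM (SD, n = 3), which is -1.17 ± 0.28 on the log2 scale (SE; edgeR adjusted p = 0.0232). Leaving out wild type replicate 1 gave -1.37 (edgeR adjusted p = 0.0105). The call was lost without wild type replicate 2 (edgeR adjusted p = 0.0860), wild type replicate 3 (0.0789), or the first (0.0874) or the second (0.0564) Mettl3-deficient library, where the log2 fold change stayed between -1.17 and -1.02, and with library size alone (0.0575).

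Hnf4a is read from an upstream start, P2, known from fetal liver and pancreas, and from a start inside an intron of those transcripts, P1, known as the start used by adult hepatocytes. Counts cover the whole gene, so the values above join the products of both. The 250 bases before each RefSeq start are shown because the HNF4A, C/EBPalpha and ONECUT proteins are known to bind one another's promoters. Capitals mark the letters matched by a short motif search on both strands.
Hnf4a upstream start, chr2:163506607-163506856, plus strand: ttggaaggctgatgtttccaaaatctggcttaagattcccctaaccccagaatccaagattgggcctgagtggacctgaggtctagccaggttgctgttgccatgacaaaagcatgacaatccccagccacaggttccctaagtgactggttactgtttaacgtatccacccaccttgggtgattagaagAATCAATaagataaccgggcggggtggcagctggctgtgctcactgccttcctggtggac
Hnf4a internal start, chr2:163546905-163547154, plus strand: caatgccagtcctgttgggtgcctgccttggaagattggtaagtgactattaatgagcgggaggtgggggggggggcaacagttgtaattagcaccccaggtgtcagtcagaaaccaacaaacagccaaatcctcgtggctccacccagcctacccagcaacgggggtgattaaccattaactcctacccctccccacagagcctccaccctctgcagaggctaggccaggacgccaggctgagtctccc
The upstream window holds AATCAAT, an ONECUT motif, 60 bases before the start. ONECUT motifs (ATCGAT or ATTGATT) were in 2.23% of the 14059 windows of tested genes and in 2 of the 12 windows of these factors. The HNF4A letters CAAAGTCCA or CAAAGTTCA were in 0 of the 12 and in 0.811% of windows of tested genes. The internal window holds none of the letters searched. The C/EBP letters below were chosen with these windows in view, so their presence there is a description only.

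Cebpa (Entrez 12606, chromosome 7, 35119293 to 35121928) encodes C/EBPalpha, which drives genes of glucose and nitrogen metabolism and restrains proliferation. Its wild-type libraries lay close together at 678, 740 and 662 CPM, and the Mettl3-deficient libraries at 250, 173 and 363 CPM were all lower and farther apart. Cebpa changed by a log2 of -1.40 ± 0.30 (SE; edgeR adjusted p = 0.0159), the largest fall among the 9 factors in this fit. Without wild type replicate 1 it was -1.42 (edgeR adjusted p = 0.0245). The call was lost without wild type replicate 2 (edgeR adjusted p = 0.0575) or Mettl3-deficient replicate 1 (0.0681) and held with library size alone (log2 fold change -0.95, edgeR adjusted p = 0.0238). Cebpa is also expressed by myeloid cells, of whose list, with lymphocyte markers, 4 of 11 rose. The window before the Cebpa start is the most CpG-rich of those printed here (22 CpG, against a median of 15 for tested genes).
Cebpa, chr7:35119043-35119292, plus strand: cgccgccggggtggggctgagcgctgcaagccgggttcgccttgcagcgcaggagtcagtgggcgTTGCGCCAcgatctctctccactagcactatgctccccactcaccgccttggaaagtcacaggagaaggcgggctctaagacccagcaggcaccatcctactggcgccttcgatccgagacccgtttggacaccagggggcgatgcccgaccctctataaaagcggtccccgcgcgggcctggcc
Its capitals are TTGCGCCA, 185 bases before the start. The C/EBP letters searched were TTGCGCAA and TTGCGCCA, found in 0.576% of windows of tested genes.

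Of the 3 Foxa genes 1 was called, Foxa1. Its fold change was not tested against those of the other 2, and its share of the 3 is given below. Foxa1 (Entrez 15375, chromosome 12, 57540628 to 57548029), the least abundant per kilobase, had 21.5, 18.9 and 25.6 CPM in wild type and 16.7, 10.5 and 12.6 CPM in Mettl3-deficient libraries. The groups did not overlap, and the gap between the nearest libraries was small beside the spread within each group. This amounts to a log2 fold change of -0.73 ± 0.21 (SE, with an edgeR adjusted p of 0.0431). The call was lost when any library but Mettl3-deficient replicate 1 was left out: the edgeR adjusted p was 0.0631, 0.0733 and 0.138 without wild type replicates 1, 2 and 3, and 0.116 and 0.0861 without Mettl3-deficient replicates 2 and 3. It was also lost with library size alone (0.361) and with a covariate for Y-linked transcripts (0.0637).

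Foxa2 (Entrez 15376, chromosome 2, 148042877 to 148046969), which with Foxa1 is needed for the liver to be specified, had 27.8, 51.6 and 51.7 CPM in wild type and 44.9, 32.1 and 37.4 CPM in Mettl3-deficient libraries. The groups overlapped, with wild type replicate 1 the lowest of the 6. Its log2 fold change was -0.20 with a 95% interval of -0.79 to 0.40 (edgeR adjusted p = 0.600). Foxa3 (Entrez 15377, chromosome 7, 19013283 to 19023539), the most abundant Foxa transcript per kilobase, had 44.6, 95.4 and 74.5 CPM in wild type and 54.9, 50.3 and 60.8 CPM in Mettl3-deficient libraries. Here too wild type replicate 1 was the lowest, and the groups overlapped. Foxa3 had a log2 fold change of -0.37 with a 95% interval of -0.97 to 0.23 (edgeR adjusted p = 0.326). Without wild type replicate 1 it was -0.62 and was called (edgeR adjusted p = 0.0369), while that of Foxa2 was -0.44 and was not (0.101). Both estimates turned positive with library size alone, to 0.28 for Foxa2 and 0.11 for Foxa3.

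A share within a library does not depend on the scaling. Foxa3 made up 54.7%, 63.0% and 55.3% of the summed Foxa level per kilobase in wild type and 52.9%, 59.7% and 60.4% in Mettl3-deficient libraries. The group means were 57.7% ± 4.66 and 57.7% ± 4.12 (SD, n = 3), with p = 1 by a two-sided exact permutation test, whose smallest possible p with 3 against 3 is 0.10. The Foxa1 share, a measure added after its values were seen, was 11.8% ± 4.22 and 8.38% ± 1.27 (exact permutation p = 0.3). With 0.10 as its smallest p, the permutation test could not reach 0.05 whatever the shares were. It therefore does not decide whether the make-up of the Foxa family changed. The window before the curated Foxa1 start, which lies within the span of longer predicted transcripts, is shown for its match to the letters that the FOXA proteins themselves bind.
Foxa1, chr12:57546112-57546361, minus strand: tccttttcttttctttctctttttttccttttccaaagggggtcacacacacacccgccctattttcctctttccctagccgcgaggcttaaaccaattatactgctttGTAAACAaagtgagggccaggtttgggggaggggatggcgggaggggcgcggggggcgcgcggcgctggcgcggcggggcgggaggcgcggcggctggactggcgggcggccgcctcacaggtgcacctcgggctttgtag
The capitals are GTAAACA, the reverse strand of TGTTTAC, 141 bases before the start. TGTTTAC or TGTTTGC was found in 5.55% of windows of tested genes and in 2 of the 12 windows of these factors, the other being an internal Prox1 start.

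The pair of Onecut paralogues differed in how steady they were. Onecut2 (Entrez 225631, chromosome 18, 64340032 to 64398488) had 110, 111 and 113 CPM in wild type and 54.3, 29.0 and 57.7 CPM in Mettl3-deficient libraries. The wild-type values were nearly equal, with a coefficient of variation of 1.37%, where counting alone gives about 1.80%. Among the 9957 genes with a mean of at least 5 CPM, 0.914% varied as little or less in wild type. The Mettl3-deficient libraries spread over 33.3%. Onecut2 changed by a log2 of -1.24 ± 0.25 (SE; edgeR adjusted p = 0.0146), and Onecut2 was the only 1 of the 9 factors whose call held whichever library was left out (highest edgeR adjusted p 0.0474). With library size alone it was -0.78 (edgeR adjusted p = 0.0284).

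Onecut1 (Entrez 15379, chromosome 9, 74861921 to 74889648), the paralogue also named HNF6, had 1.85, 12.8 and 21.0 CPM in wild type, from 52, 363 and 568 counts. Its Mettl3-deficient libraries held 19.7, 8.81 and 6.79 CPM. Wild type replicate 1 was far below the other 5 libraries, which overlapped between the groups. The coefficient of variation was 80.8% in wild type and 59.1% in Mettl3-deficient livers, above that of 98.5% and 97.6% of the genes of at least 5 CPM. The estimate of -0.01 (log2) had a wide 95% interval, -1.96 to 1.93 (edgeR adjusted p = 0.991), and its sign changed with the setting. Without wild type replicate 1 it was -0.52 (edgeR adjusted p = 0.429), without wild type replicate 3 it was 0.68 (0.617), and with library size alone 0.48. The log2 ratio of Onecut2 to Onecut1 per kilobase was 3.91, 1.13 and 0.44 in wild type and -0.52, -0.26 and 1.11 in Mettl3-deficient libraries (exact permutation p = 0.2). The groups overlapped through the last of these values. The difference of the means, -1.72, came to -0.68 without wild type replicate 1.

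Prox1 (Entrez 19130, chromosome 1, 190118035 to 190170827), a homeobox corepressor of HNF4A and other nuclear receptors that also marks lymphatic endothelium, had 36.9, 48.6 and 57.4 CPM in wild type and 21.0, 19.1 and 40.4 CPM in Mettl3-deficient libraries. Mettl3-deficient replicate 3 lay within the wild-type range, and the other 2 were below it. The estimate of -0.83 ± 0.31 (log2, SE) was not called (edgeR adjusted p = 0.0862). Prox1 was called without Mettl3-deficient replicate 3 (log2 fold change -1.25, edgeR adjusted p = 0.0119), with DESeq2 (adjusted p = 0.0463) and with the Y-linked covariate (edgeR adjusted p = 0.0353). Without wild type replicate 1 it was not (-0.99, edgeR adjusted p = 0.0676).

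Hhex (Entrez 15242, chromosome 19, 37434841 to 37440731), a homeobox repressor of the early liver bud that endothelial and B cells also express, had 30.4, 90.6 and 124 CPM in wild type and 88.2, 74.4 and 67.4 CPM in Mettl3-deficient libraries. The Mettl3-deficient values lay inside the wild-type range, whose low end was replicate 1. Hhex had a log2 fold change of -0.09 with a 95% interval of -1.12 to 0.95 (edgeR adjusted p = 0.899). It was -0.49 without wild type replicate 1 (edgeR adjusted p = 0.113), 0.34 without wild type replicate 3, and 0.40 with library size alone. Endothelial markers summed to between 288 and 450 CPM in wild type and between 302 and 343 CPM in Mettl3-deficient livers.

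The libraries can also be split by Y-linked transcripts. For Hnf4a, Cebpa, Foxa1 and Onecut2, whose groups did not overlap, any split gives lower Mettl3-deficient values, so only the sizes are of interest. The log2 ratio of the group means, with and then without Y-linked transcripts, was -0.74 and -1.18 for Hnf4a, -1.68 and -0.95 for Cebpa, -0.66 and -0.82 for Foxa1 and -1.40 and -0.95 for Onecut2. For Prox1 it was -0.88 and -0.39. Foxa2, Foxa3, Onecut1 and Hhex were above wild type among libraries with Y-linked transcripts and below it among those without. How many of all tested genes do the same was not counted. Each set has 1 group with a single library: wild type replicate 1 alone stands for wild type in the first set, and Mettl3-deficient replicate 3 alone for its group in the second. An edgeR fit of the interaction, added after this split was seen, therefore rests on arms of 1 library, and its calls, 1.11% of all genes and Hhex among the 9, are not used to say that the genotype effect differed between the sets. The split and the position of wild type replicate 1 cannot be told apart.

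**Figure D2:**
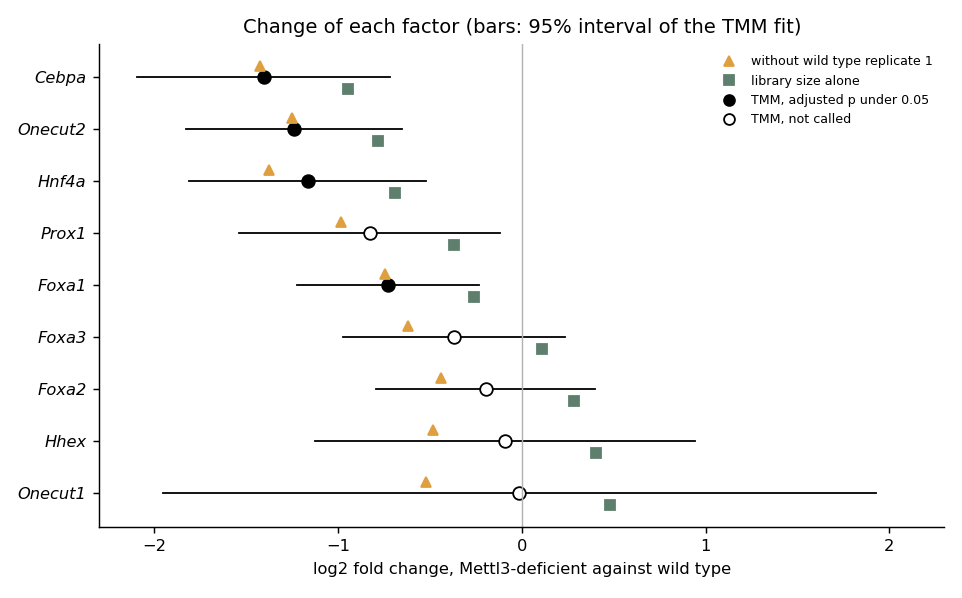
Log2 fold change of each factor, Mettl3-deficient against wild type (x axis), with circles and 95% interval bars from the TMM fit (filled where called), triangles for the fit without wild type replicate 1 and squares for scaling by library size alone. Cebpa, Onecut2, Hnf4a, Prox1 and Foxa1 lie below 0 in all 3, while Foxa2, Foxa3, Hhex and Onecut1 cross 0 with library size alone.

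Another scaling shifts all genes of a library alike, by construction, so each factor is also given relative to the median of all genes. That log2 difference was -1.18 for Hnf4a, -1.42 for Cebpa, -1.25 for Onecut2, -0.74 for Foxa1, -0.84 for Prox1, -0.38 for Foxa3, -0.21 for Foxa2, -0.10 for Hhex and -0.03 for Onecut1.

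Levels of different genes are compared per kilobase of annotated exon, as TMM-normalised CPM per kilobase. In wild type Cebpa was highest at 263 ± 15.7 and Hnf4a next at 178 ± 47.9 (SD, n = 3), and their ranges did not overlap. Foxa3 (35.1 ± 12.5) and Foxa2 (18.4 ± 5.81) followed, with touching but separate ranges, and Hhex (16.1 ± 9.36) overlapped both of its neighbours. Onecut2 (6.84 ± 0.0938), Foxa1 (6.60 ± 1.01), Prox1 (5.68 ± 1.23) and Onecut1 (2.89 ± 2.34) were lowest, and neighbours in that order overlapped. In Mettl3-deficient livers Cebpa (99.4 ± 36.2) and Hnf4a (79.1 ± 11.5) overlapped. Foxa3 (27.2 ± 2.60), Foxa2 (16.1 ± 2.72) and Hhex (15.2 ± 2.10) kept their places, and Onecut2 went to 2.89 ± 0.964, just above Onecut1 (2.86 ± 1.69). Exon lengths were those of GENCODE, and the long final exon of Onecut2 (16234 bases of exon in all) makes its value depend on that annotation.

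Some factors had like profiles over the 6 libraries. Likeness was taken as the root mean square difference of log2 CPM over the 6 libraries, each gene centred on the mean of its 2 group means. The group difference stays in this measure, so genes with like fold changes are near in part by construction. The closest pair was Cebpa and Onecut2 (0.17), with 44 genes of at least 5 CPM nearer to Cebpa than Onecut2 was. Foxa2 and Foxa3 came next (0.18), with 83 genes nearer to Foxa2, then Hnf4a and Prox1 (0.29), with 380 nearer to Hnf4a. Onecut1 and Hhex were farther apart in absolute terms (0.59), but only 12 genes were nearer to Onecut1 than Hhex was. That count is taken from Onecut1, whose wide spread leaves few genes near it. Hhex itself was nearer to Foxa2 (0.37) and Foxa3 (0.46) than to Onecut1. Among other genes, Dhrs7 (0.069) and Ttc7b were nearest to Hnf4a, Msrb1 (0.075) and Dpyd to Cebpa, and Aspa (0.051) and Gstt1 to Onecut2. Kyat3 (0.11) and Cpne2 were nearest to Foxa1, Tnks1bp1 (0.068) and Tex261 to Foxa2, and Pitpnc1 (0.070) and Ppp1r15b to Foxa3. Slc2a2 (0.087), the hepatocyte glucose transporter, and Pdk2 were nearest to Prox1. The genes nearest to Onecut1 were the cell cycle kinase gene Wee1 (0.41) and Tgm1, and those nearest to Hhex were B4galt1 (0.16) and Cebpb (0.17), all with their lowest level in wild type replicate 1.

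**Figure D3:**
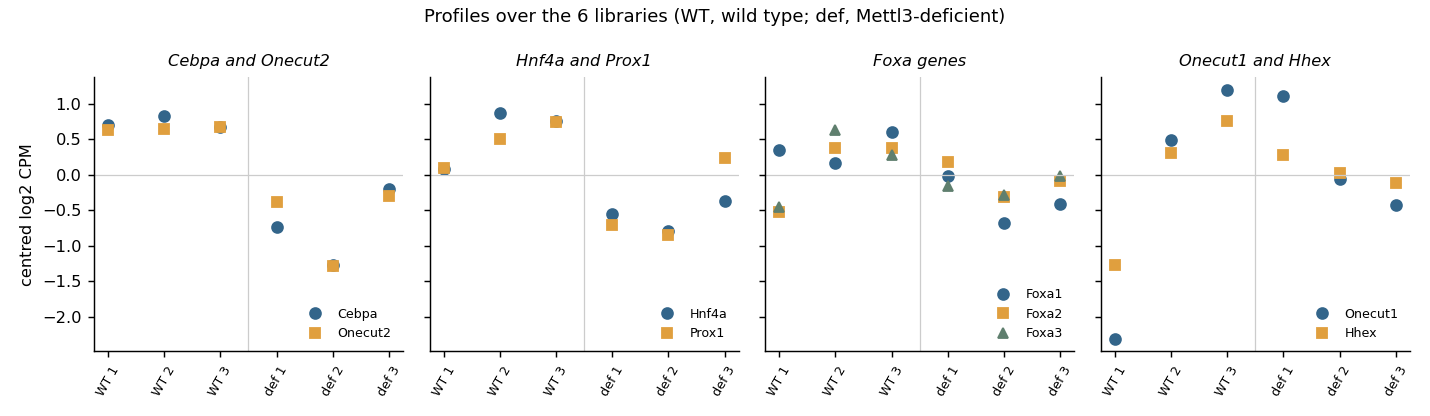
Log2 CPM of the factors in the 6 libraries (x axis), centred on the mean of the 2 group means, in 4 panels. The Foxa genes share a panel as a family, although Foxa1 was nearer to Onecut2 (0.37) than to Foxa2 (0.43) or Foxa3 (0.47). Hhex is shown with Onecut1 (0.59), although it was nearer to Foxa2 (0.37) and Foxa3 (0.46). Cebpa and Onecut2 are flat in wild type and lowest in Mettl3-deficient replicate 2, while Onecut1 and Hhex are lowest in wild type replicate 1.

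Of 26 other liver transcription factors, 6 fell and 1 rose, against 23.8% of all tested genes called in either direction, and the median log2 fold change was -0.28. The xenobiotic receptor gene Nr1i3 fell 3.88-fold, the glucocorticoid-responsive factor Klf15 2.84-fold, and the bile acid receptor gene Nr1h4 2.47-fold. Nfia and Nfib, nuclear factor I genes, fell 1.93- and 1.86-fold. Zbtb20, a zinc finger repressor of Afp, rose from 3.75 ± 0.932 CPM to a mean of 9.70 ± 3.02 CPM, SD with n = 3 (edgeR adjusted p = 0.0203). Ppara (log2 fold change -1.23), Nr1i2 (-0.86), Nr0b2 (-2.02) and Cebpd (-0.71) were the uncalled genes with the smallest p-values (edgeR adjusted p = 0.0586, 0.0888, 0.112 and 0.157). Among the 7, Klf15 alone kept its call whichever library was left out. Only 1 fell when wild type replicate 2, wild type replicate 3 or the first Mettl3-deficient library was left out, and 2 when the second Mettl3-deficient library was. Zbtb20 lost its call without wild type replicate 2 or either of those 2 Mettl3-deficient libraries, and library size alone gave 3 lower and 4 higher.

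Of 24 genes known as targets of the 9 factors, some of them also hepatocyte markers, 8 fell and 2 rose, and 21 of the 24 estimates were below 0, with a median of -1.15. Over all tested genes, 10.5% were called lower and 13.3% higher, and 7095 of 14380 estimates were below 0, with a median of 0.01. The targets that fell included the bile acid transporter Slc10a1 (5.76-fold), glycogen synthase Gys2 (3.14-fold), Pklr (2.95-fold) and albumin (Alb, 2.90-fold). Apoc3, the urea cycle enzyme Otc and clotting factor F9 fell 2.75-, 2.57- and 2.41-fold. Igfbp1, which binds insulin-like growth factors and is activated by FOXA and FOXO1, rose from 52.7 ± 28.7 CPM to a mean of 192 ± 57.2 CPM, SD with n = 3 (edgeR adjusted p = 0.0231). The fetal gene Afp rose from 2.39 ± 0.588 to 6.81 ± 2.27 CPM (edgeR adjusted p = 0.0181). Apoa2, Apob, Pfkfb1 and Tat had log2 fold changes between -1.12 and -0.93 and were not called (edgeR adjusted p from 0.0530 to 0.0686). The calls of Slc10a1 and Apoc3 held whichever library was left out. Leaving out wild type replicate 2 or 3 gave 5 that fell, leaving out the first Mettl3-deficient library 3, and leaving out the third 13, while DESeq2 gave 16. Afp lost its call without wild type replicate 2, and Igfbp1 without the second or the third Mettl3-deficient library. In the 23 windows of target promoters, the FOXA letters were in 6 (26.1%, against 5.55% of windows of tested genes), the ONECUT letters in 2 (8.70%, against 2.23%), the HNF4A letters in 1 (4.35%, against 0.811%) and the C/EBP letters in 0 (against 0.576%).

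**Figure D4:**
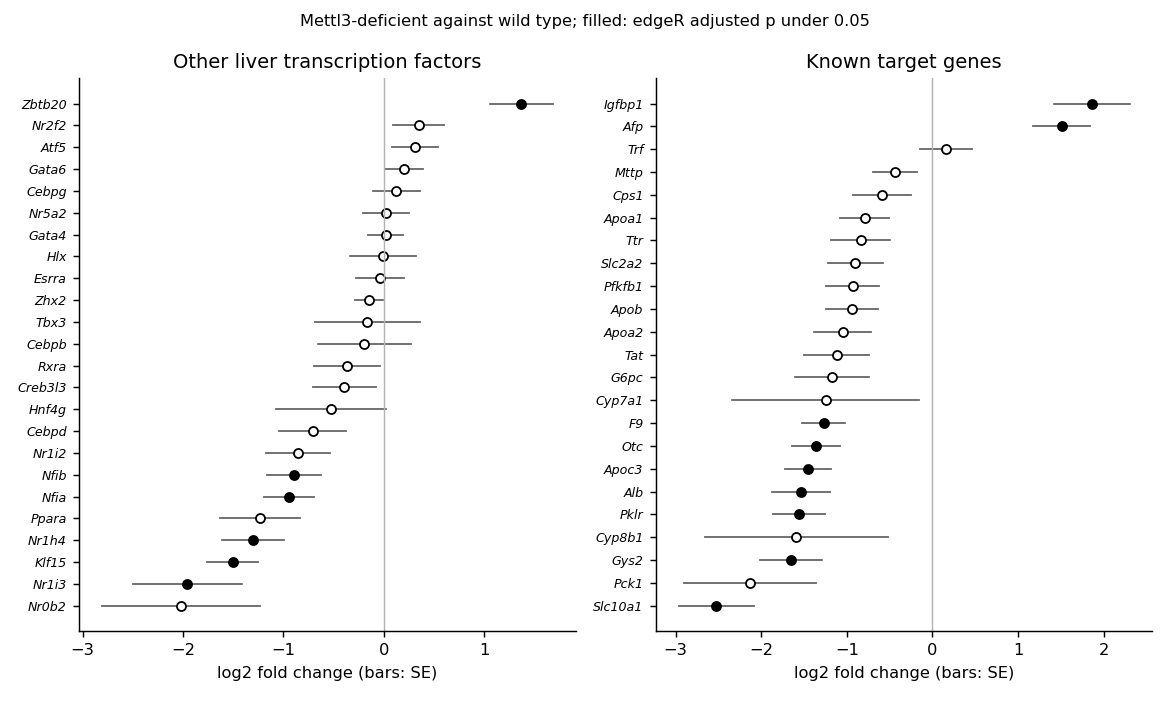
Log2 fold changes with SE bars (x axis) of 24 of the 26 other liver transcription factors and 23 of the 24 known target genes, filled where edgeR called them. In the first panel 5 filled genes lie below 0 and 1 above, and in the second 7 below and 2 above.

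Markers of other liver cells moved in part, beside 10.5% of all tested genes called lower and 13.3% called higher. Of 11 tested biliary markers 5 rose, 0 fell and 6 were not called. Among those that rose were Cldn4 (11.8-fold), Sox4 (5.18-fold) and Muc1, from low wild-type means of 0.577, 1.79 and 1.14 CPM. The whole list, called or not, summed to 123 to 166 CPM in wild type and 146 to 310 CPM in Mettl3-deficient livers. Onecut3, the third Onecut paralogue, was on that list and had 0 counts in all 6 libraries. Of 11 myeloid and lymphoid markers 4 rose, including Itgam, Lyz2 and Ptprc, with a sum of 142 to 408 CPM in wild type, lowest in replicate 1, and 399 to 671 CPM in Mettl3-deficient livers. Of 13 tested endothelial markers 1 fell, Lyve1, and of 8 stellate cell markers 0 changed. Of 12 hepatocyte markers 4 fell, including Fgb, Asgr2 and Alb. The calls of Cldn4, Sox4 and Itgam held whichever library was left out. Ptprc kept its call in 1 of those 6 fits, without the third Mettl3-deficient library, and Muc1 in 2, without wild type replicate 1 or the second Mettl3-deficient library. Lyz2, Fgb, Asgr2 and Alb lost theirs without wild type replicate 2 or 3, and also without the second Mettl3-deficient library for Lyz2 and the first for the other 3. Lyve1 lost its call without wild type replicate 3 or the first Mettl3-deficient library. The part of these cell type shifts in the factors' values was not tested.

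Genes that overlap a factor can share reads with it, because the strand setting of the counting is not given. Among counted genes, Hnf4aos and Ttc6 overlap a factor by their RefSeq spans, while Sympk and R3hdml lie within 5 kb without overlap. Other annotated neighbours were not among the counted genes, so reads from them could not be seen. These are Gm33562 and Gm38678 over Onecut1, Prox1os over Prox1, Gm25881 over Hnf4a, and 9030622O22Rik within 5 kb of Foxa2. Hnf4aos, the antisense RNA over the first part of Hnf4a, held between 0.211% and 2.26% of the counts of Hnf4a, most in wild type replicate 1 (13.4 CPM). Ttc6 overlaps the upstream end of the whole Foxa1 span, which reaches 57548029. It begins at 57546704, upstream of the window printed before the curated Foxa1 start (57546112 to 57546361). Ttc6 held at most 18 counts in a library. Sympk, a polyadenylation factor gene just upstream of Foxa3, was as abundant as Foxa3 and fell from 85.0 ± 8.59 CPM to a mean of 58.6 ± 4.47 CPM, SD with n = 3 (edgeR adjusted p = 0.0356). That call was lost when any library but wild type replicate 1 was left out. R3hdml, upstream of Hnf4a, had a mean of 2.44 CPM in wild type and 1.41 CPM in Mettl3-deficient livers.

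The letters GGACT, a common form of the sequence that the METTL3 complex methylates, were counted in the longest coding transcript of each factor. A match is not a methylated site. Onecut2 held 11 in 16234 bases, Onecut1 and Prox1 6 each, Foxa1 5, Cebpa 4, Hnf4a and Foxa3 3 each, and Foxa2 and Hhex 1 each, against a median of 3 over 13135 genes. Per kilobase, the values ran from 0.470 (Foxa2) to 1.57 (Foxa1), against a median of 1.06. The 4 factors that fell lay on both sides of that median, with 0.688 for Hnf4a, 0.678 for Onecut2, 1.52 for Cebpa and 1.57 for Foxa1.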

How the data were processed

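The deposited files hold raw counts per gene under Entrez numbers, 1 library each. The submitters' processing notes name HISAT2, featureCounts and mm10. Their versions, the annotation and the strand setting of the authors' counting were not found in the sources used here. Per the labels' protocols, libraries came from TRIzol total RNA of frozen liver after ribosomal RNA removal, with a directional kit.

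Symbols were taken from RefSeq (GRCm38.p6, the build of mm10), which matched 25275 of 27179 identifiers; Tf of the lists was found as Trf by its synonym. Promoter windows were from the RefSeq table of the same build, with 8 of 9 factors matched, and exon lengths and transcripts from GENCODE M21. Counts were tested over all genes with edgeR 4.0.16 (R 4.3.3): robust quasi-likelihood F test, two-sided, TMM, intercept and group, filterByExpr (smallest count 10, smallest total 15). P-values were adjusted by Benjamini-Hochberg over 14380 genes and called under 0.05. SEs came from the fold change and F statistic. The labels do not say that libraries come from separate animals. Y-linked counts set wild type replicate 1 apart from replicates 2 and 3, and Mettl3-deficient replicate 3 from replicates 1 and 2; within these pairs the spread behind the p-values may be technical. The script was tested on simulated counts, and no pair of libraries agreed within sampling noise.

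Alternatives were RLE factors, DESeq2 1.42.0, limma-voom (limma 3.58.1), library size alone, no filter or CPM of at least 1 in 3 samples, a replicate block, a covariate for libraries with more than 100 Y-linked counts, and each library left out. The factors and lists were chosen with earlier results of these data known, so no list is independent evidence. Named genes are the 9 factors, called genes of the wider and target lists with up to 4 uncalled by p, up to 3 called genes per marker list, genes within 5 kb, and the 2 nearest genes in likeness with a mean of at least 5 CPM; Onecut3 was named after its values were seen. Of the listed genes, 3 are counted but not reported here by name.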

Additional observations from a re-analysis of the deposited data

Results flagged for a closer look

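The direction of 4 factors differed between the libraries with Y-linked transcripts (wild type replicate 1 and Mettl3-deficient replicates 1 and 2) and the other 3 (Mettl3-deficient replicate 3, wild type replicates 2 and 3), with every Mettl3-deficient library above wild type in the first set and below it in the second. The log2 ratio of Mettl3-deficient to wild type was 0.47 and -0.47 for Foxa2, 0.24 and -0.48 for Foxa3, 2.95 and -1.32 for Onecut1, and 1.42 and -0.67 for Hhex. The share of all tested genes with this pattern was not counted, so the pattern cannot be called particular to these factors. A single wild-type library stands for the first set and a single Mettl3-deficient library for the second, so whether the effect differs between the sets could not be tested with replicates; an interaction fit chosen after seeing the data rests on these single libraries and is not used.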

How the results depend on the processing

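The smallest count of any factor in a library was 52 (Onecut1), and each group had 3 libraries. The falls of Hnf4a, Foxa1, Cebpa and Onecut2 and the value of Prox1 kept their direction in all 14 alternatives. With library size alone, 2 factors, 3 wider factors and 595 of all genes fell, and 4 wider factors and 4810 of all genes rose (against 1514 lower and 1906 higher), and the log2 fold changes were -0.69 for Hnf4a, -0.26 for Foxa1, 0.28 for Foxa2, 0.11 for Foxa3, 0.48 for Onecut1 and 0.40 for Hhex, since by construction that setting leaves the difference in composition in. With DESeq2, 16 target genes fell and Prox1 was called (-0.84). With limma-voom, Onecut1 was at 0.42 and Hhex at 0.12. With the Y-linked covariate, Foxa1 (-0.74) lost its call, Prox1 (-0.64) gained one, and Onecut1 and Hhex were at 0.70 and 0.37; the cause was not tested.

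Leaving out 1 library at a time gave 1 to 4 factors, 1 to 7 wider factors, 3 to 13 target genes and 518 to 1582 of all genes that fell, and 0 to 1 wider factors, 1 to 2 target genes and 840 to 1932 of all genes that rose. The log2 fold change ranged from -1.37 to -1.02 for Hnf4a, -0.93 to -0.58 for Foxa1, -0.44 to -0.06 for Foxa2, -0.62 to -0.11 for Foxa3, -1.71 to -1.18 for Cebpa, -0.61 to 0.68 for Onecut1, -1.42 to -0.99 for Onecut2, -1.25 to -0.63 for Prox1 and -0.49 to 0.34 for Hhex. Onecut1 was above 0 when wild type replicate 2 (0.04), wild type replicate 3 (0.68) or the second (0.16) or the third (0.26) Mettl3-deficient library was left out, and Hhex without wild type replicate 3 (0.34). The antisense gene Hnf4aos ranged from -1.27 to 0.44, the latter without wild type replicate 1.

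The labels do not say that replicate numbers pair the samples, and deviations of same-numbered libraries correlated at 0.084, -0.017 and 0.034, so pairing was not assumed; only number 1 correlated best with its own number in both groups. With the replicate block, 5 factors fell, Prox1 (-0.89) among them, Onecut1 was at 0.17 and Hhex at 0.10, and 1155 of all genes fell and 1528 rose.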
